A study of Mus musculus with 9 samples.

Results

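The 10 genes described here encode AP-1 subunits and other immediate early transcription factors: Fos, Fosb, Fosl1, Fosl2, Jun, Junb, Jund, Atf3, Egr1 and Myc. They were taken as the rows of the deposited count table that carry these symbols, and were found as 10 of 54532 gene identifiers. All 10 had enough counts to be tested in each comparison. RNA came from hearts of male wild-type C57BL/6J mice aged 8 to 10 weeks, with 3 mice in each of 3 groups. Sham mice had the chest opened and the suture placed without being tied. MIRI mice, named for myocardial ischemia/reperfusion (I/R) injury, had the left anterior descending coronary artery tied for 30 min, followed by 24 h of reperfusion, and received saline. GXNI mice had the same I/R and received Guanxinning injection, a product of Danshen and Chuanxiong, at 9 mL/kg into the tail vein. By the paper, every group, sham included, had a tail vein injection of drug or saline. The 3 MIRI and 3 GXNI hearts are called the 6 I/R hearts below.

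AP-1 is a dimer of basic leucine zipper proteins, in which a JUN protein pairs with a FOS, JUN or ATF protein and binds short DNA elements. Immediate early genes are transcribed soon after a growth factor, calcium or stress signal without the need for new protein, and most of their mRNAs are short-lived. In heart they are known to respond to ischemia, reperfusion and stretch.

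Of the members with a RefSeq entry, promoter sequences are shown for those whose starts carry letters of the cyclic AMP response element. Those of Fosl2 and Jund held neither TGACG nor TGACATCA and are not shown. A link between this element and the levels of the genes given below was not tested. Each line gives the 150 bases before the RefSeq start of GRCm38.p6, from 5′ to 3′ on the strand of the gene. Capitals mark TGACG on either strand, or TGACATCA in Jun.
Fos (chr12:85473740-85473889, forward strand): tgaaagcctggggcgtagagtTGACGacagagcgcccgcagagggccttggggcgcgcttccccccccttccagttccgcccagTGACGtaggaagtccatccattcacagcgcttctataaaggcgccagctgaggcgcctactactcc
Fosb (chr7:19310046-19310195, reverse strand): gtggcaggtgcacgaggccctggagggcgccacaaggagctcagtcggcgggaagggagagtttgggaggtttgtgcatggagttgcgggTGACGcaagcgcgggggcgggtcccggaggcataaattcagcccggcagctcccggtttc
Junb (chr8:84978749-84978898, reverse strand): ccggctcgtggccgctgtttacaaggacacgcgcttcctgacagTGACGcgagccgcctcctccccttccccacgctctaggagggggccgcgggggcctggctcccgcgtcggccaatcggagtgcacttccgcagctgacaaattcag
Jun (chr4:95052223-95052372, reverse strand): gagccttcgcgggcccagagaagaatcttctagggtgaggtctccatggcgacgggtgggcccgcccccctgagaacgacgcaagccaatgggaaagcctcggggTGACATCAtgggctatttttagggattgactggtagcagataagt
Atf3 (chr1:191183334-191183483, reverse strand): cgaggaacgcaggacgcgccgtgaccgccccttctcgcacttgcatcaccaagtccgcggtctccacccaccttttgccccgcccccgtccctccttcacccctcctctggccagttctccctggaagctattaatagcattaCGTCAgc

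In GENCODE M21 (GRCm38) the FOS family genes lie apart, Fos on the forward strand of chr12:85473890-85477273, Fosb on the reverse strand of chr7:19302696-19310051, Fosl1 on the forward strand of chr19:5447547-5455946 and Fosl2 on the forward strand of chr5:32135801-32157842. Of the JUN family genes, Junb and Jund share a chromosome, with Jun on the reverse strand of chr4:95049034-95052222, Junb on the reverse strand of chr8:84974484-84978718 and Jund on the forward strand of chr8:70698949-70700616. The genes outside both families include Atf3 on the reverse strand of chr1:191170296-191218039 and Myc on the forward strand of chr15:61985391-61990374.

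RefSeq windows of 250 bases before the start were matched for 7 of the 10 members, and Fosl1, Egr1 and Myc had no entry. TGACG, searched on both strands and contained in TGACGTCA, lay in 4 of the 7 windows and in 17.8% of all 32851 windows. In Fos it began 129 and 66 bases before the start, in Fosb 60 and in Junb 106, and in Atf3 the match on the opposite strand began 7 bases before it. TGACATCA lay in 1 member window, that of Jun, 45 bases before the start, and in 2.93% of all windows. TGACGTCA lay in 0 of the 7 windows against 1.55% of all windows. The AP-1 element TGANTCA was found in 0 member windows and in 6.75% of all windows. The CArG box, the element of serum response factor, was found in 0 member windows and in 1.47% of all. With shares this low over all windows, finding none of these elements in 7 windows says little. Bases farther upstream than 250 were not searched for any of these elements. The RefSeq start of Atf3 lay 34706 bases inside the GENCODE gene, that of Jund 1210 and that of Fosl2 671 bases from the annotated 5′ end, so these windows need not be the promoters in use. These matches describe letters and were not tested as binding sites.

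The 9 libraries held between 17119454 and 22811295 counts, and 3 counts corresponded to 0.132 to 0.175 CPM, that is counts scaled to the library size. Levels are given as CPM scaled with the TMM factors of edgeR. The libraries of the I/R groups did not separate by label. On the first principal component of log2 CPM, with 64.7% of the variance, the sham libraries lay between -59.8 and -52.2, with MIRI 2 at -44.4 and GXNI 1 at -43.5. GXNI 2 lay at 18.7, and MIRI 1, MIRI 3 and GXNI 3 lay at 61.6, 83.2 and 94.4. An earlier analysis of these counts found that the fold changes published with the study correspond to an exchange of the labels MIRI 2 and GXNI 3. The deposited labels were kept here, and each comparison is given with all libraries and without these 2. In the comparison of all I/R hearts with sham, the drug labels enter only the estimate of the spread and the weighting of the 2 I/R groups. With the 6 I/R hearts as 1 group instead, the rule given below called 8 members, adding Junb, Egr1 and Myc, and 5.52% of all genes.

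The labels name cardiomyocytes, but the RNA was from heart tissue. The summed level of 8 cardiomyocyte markers, such as Myh6 and Tnnt2, was 41900 to 44600 CPM in sham, 28800 to 46000 in MIRI and 30200 to 37400 in GXNI libraries. The highest of these sums, in MIRI 2, included Actc1 at 8820 CPM, against 4120 to 5500 CPM in sham. Actc1 was the only 1 of the 8 with a positive log2 fold change in I/R against sham. The median of the 8 was -0.4, and 0 were called. Markers of macrophages, endothelial cells and fibroblasts were also measured, with sums of at least 317 CPM in each library. The sum of 8 neutrophil markers was 150 to 199 CPM in sham, 230 to 1010 in MIRI and 617 to 689 in GXNI libraries. Lcn2, which other cell types are also known to express, made up most of this sum in all sham libraries, MIRI 2, GXNI 1 and GXNI 2. Its level was 125 to 150 CPM in sham, 391, 206 and 172 CPM in MIRI 1 to 3, and 578, 438 and 131 CPM in GXNI 1 to 3. Without it the other 7 markers summed to 25.2 to 51 CPM in sham, to 615, 23.6 and 498 CPM in MIRI 1 to 3, and to 41.6, 179 and 557 CPM in GXNI 1 to 3. Among them, the level of S100a8 was 9.21 to 12.1 CPM in sham, 202, 8.55 and 141 in MIRI 1 to 3, and 13.4, 53.7 and 130 in GXNI 1 to 3. Adipoq and Lep, markers of fat cells, had at most 3 counts in each library. The part of changes in cell makeup in the results below was not tested, and in bulk tissue fewer cells of a type and less RNA per cell cannot be told apart.

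All 10 members had a positive log2 fold change in I/R against sham hearts, with a median of 2.76 against 0.00 over all genes tested. Calls required an unadjusted p no higher than 0.01 together with a fold change of 1.5 or more, the thresholds of the study, and by this rule 5 members rose, namely Fos, Fosb, Fosl2, Jund and Atf3. Over all 15207 genes tested, 4.09% were called higher. The same 5 members were above every sham library in all 6 I/R libraries, which held for 8.4% of genes. In this fit no member and no gene reached an adjusted p of 0.05 in edgeR's quasi-likelihood test with Benjamini-Hochberg adjustment. Of all genes, 26.4% had an unadjusted p under 0.05. The same edgeR test without the filter on low counts gave an adjusted p of 0.0218 for Jund, 0.0398 for Atf3 and at least 0.0507 for the others. DESeq2, also without this filter, called 9 members, all except Jun, against 4.58% of 29337 genes, which include genes too low for the edgeR fit. Its adjusted p was 0.0672 for Fosl1 and 3.05e-06 to 0.0117 for the other called members (Wald test with Benjamini-Hochberg adjustment). Without MIRI 2 and GXNI 3, 9 members were called, again all except Jun, against 10.2% of genes, and their adjusted p ran from 0.0018 to 0.018 in the same edgeR test. For all 10 members MIRI 2 was the lowest MIRI library and GXNI 3 the highest GXNI library, so leaving both out narrows the range within each group by construction, and they were chosen with these values known.

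**Figure D1:**
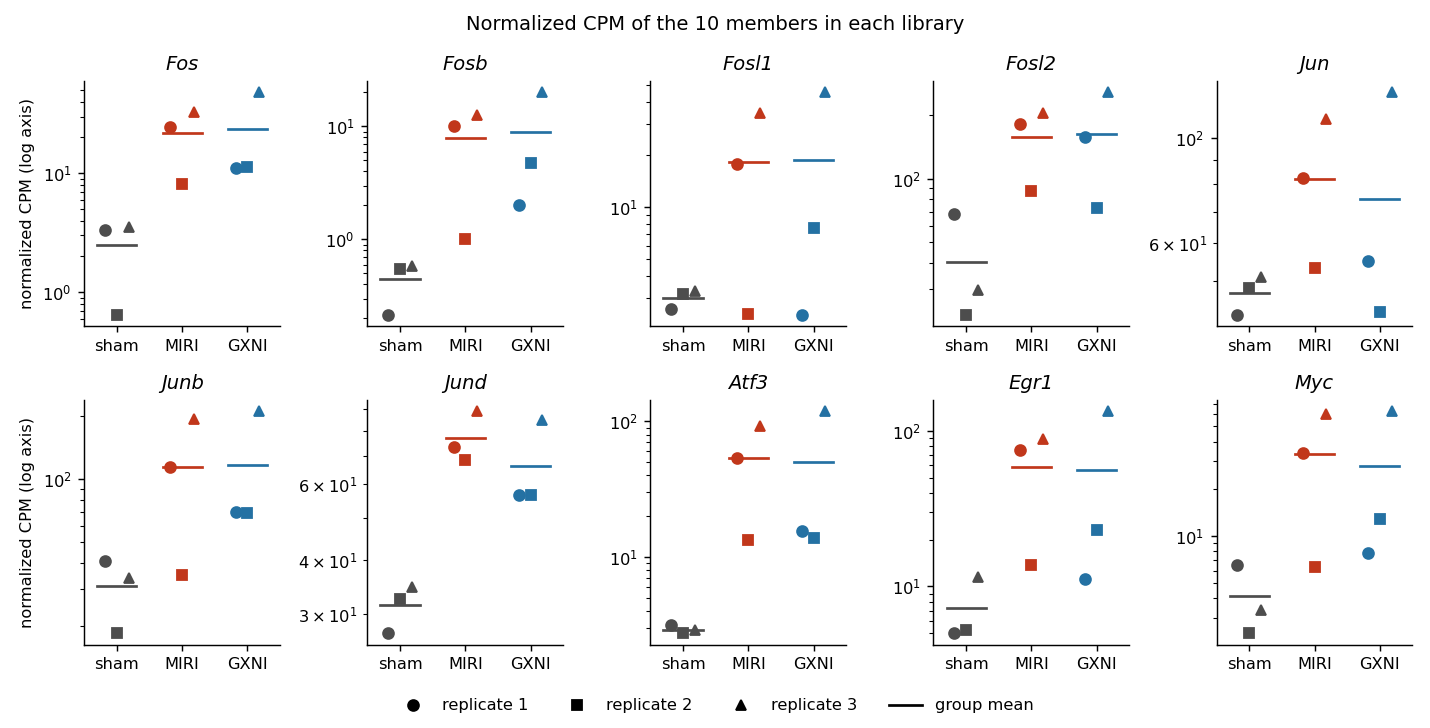
Normalized CPM on a log axis for the 10 members, 1 panel each, with a point per library and a line at the mean of each group of 3. For 9 of the 10 members the highest point is GXNI 3, and MIRI 2 lies at or near the lowest I/R point in most panels.

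Among the FOS proteins, which bind DNA as partners of JUN proteins, Fos, the founding member, was at 3.33, 0.644 and 3.52 CPM in sham 1 to 3, at 24.3, 8.07 and 32.7 CPM in MIRI 1 to 3, and at 11.1, 11.2 and 48.1 CPM in GXNI 1 to 3. The groups did not overlap between sham and I/R, and the lowest I/R library, MIRI 2, still held 136 counts. Fos rose by 3.18 on the log2 scale over the 6 I/R hearts (SE 0.80, unadjusted p = 0.00334, adjusted p = 0.125, edgeR's quasi-likelihood test with Benjamini-Hochberg adjustment).

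Fosb, whose product is known for its stable splice form in long-lasting stimulation, was the lowest member in sham hearts, at 0.215, 0.545 and 0.586 CPM, that is 4, 11 and 11 counts. It was at 10, 1.01 and 12.6 CPM in MIRI 1 to 3 and at 2.0, 4.78 and 20.1 CPM in GXNI 1 to 3. Each I/R library was above each sham library, and MIRI 2, with 17 counts, was the closest to sham. The rise was 4.2 on the log2 scale, the largest fitted change among the members (SE 1.09, unadjusted p = 0.00399, adjusted p = 0.125, edgeR's quasi-likelihood test with Benjamini-Hochberg adjustment).

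Fosl1 encodes FRA1, a FOS protein without the strong activation domain of Fos. Its level was 2.58, 3.17 and 3.30 CPM in sham 1 to 3, 17.7, 2.43 and 34.5 CPM in MIRI 1 to 3, and 2.40, 7.59 and 45.6 CPM in GXNI 1 to 3. MIRI 2 and GXNI 1 lay below all sham libraries while the other 4 I/R libraries lay above them, so the groups overlapped. The log2 fold change of 2.61 did not pass (SE 1.05, unadjusted p = 0.0353, adjusted p = 0.167, edgeR's quasi-likelihood test with Benjamini-Hochberg adjustment). It was 1.92 without MIRI 2 and GXNI 3 and was then called. The gene overlaps Ccdc85b, with 531 to 878 counts, on the opposite strand, and the strand setting of the counting is not given in the sources used here.

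Fosl2, the gene of FRA2, had the highest CPM in the FOS family. It was at 68.1, 22.7 and 29.9 CPM in sham 1 to 3, at 182, 87.6 and 205 CPM in MIRI 1 to 3, and at 158, 73.0 and 257 CPM in GXNI 1 to 3. All 6 I/R libraries were higher, although GXNI 2 lay only a little above sham 1. Fosl2 rose by 2.0 on the log2 scale (SE 0.52, unadjusted p = 0.00422, adjusted p = 0.125, edgeR's quasi-likelihood test with Benjamini-Hochberg adjustment).

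The JUN proteins can pair with each other as well as with FOS proteins. Jun itself was at 42.4, 48.3 and 50.9 CPM in sham 1 to 3, at 82.4, 53.3 and 110 CPM in MIRI 1 to 3, and at 55.1, 43.1 and 125 CPM in GXNI 1 to 3. GXNI 2 lay within the sham range, and MIRI 2 and GXNI 1 lay just above it. Its log2 fold change of 0.73 was the smallest of the members (SE 0.35, unadjusted p = 0.0718, adjusted p = 0.221, edgeR's quasi-likelihood test with Benjamini-Hochberg adjustment). It was called in 0 of 16 alternative settings of this comparison.

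Junb, a JUN protein known to act as a weaker activator than Jun and to restrain it in some settings, was at 41.0, 18.4 and 33.9 CPM in sham 1 to 3. It was at 115, 34.9 and 194 CPM in MIRI 1 to 3 and at 69.9, 69.3 and 213 CPM in GXNI 1 to 3. MIRI 2 fell inside the sham range and the other 5 I/R libraries lay above it. The log2 fold change was 1.90 (SE 0.61, unadjusted p = 0.0129, adjusted p = 0.135, edgeR's quasi-likelihood test with Benjamini-Hochberg adjustment), just short of the rule, and 2.11 without MIRI 2, when it was called. Reads of the abundant Prdx2, with 3411 to 5452 counts, on the opposite strand may be shared where the genes overlap.

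Jund, the member that resting cells are known to express, was at 27.0, 32.5 and 34.7 CPM in sham 1 to 3, at 73.3, 68.3 and 89.1 CPM in MIRI 1 to 3, and at 56.8, 56.8 and 84.9 CPM in GXNI 1 to 3. The lowest I/R library lay clearly above the highest sham library. The rise of 1.18 on the log2 scale was small but had the smallest p of the members (SE 0.18, unadjusted p = 0.000117, adjusted p = 0.0969, edgeR's quasi-likelihood test with Benjamini-Hochberg adjustment). Jund was called without any 1 of the 9 libraries, with p between 5.42e-05 and 0.00101.

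Atf3, a stress-induced partner of JUN proteins that often represses transcription as a homodimer, was at 3.11, 2.72 and 2.88 CPM in sham 1 to 3. It was at 53.6, 13.4 and 93.1 CPM in MIRI 1 to 3 and at 15.6, 13.8 and 120 CPM in GXNI 1 to 3. The sham values lay close together, and the lowest I/R library was 4.62 times their mean. Atf3 rose by 4.15 on the log2 scale (SE 0.97, unadjusted p = 0.00217, adjusted p = 0.125, edgeR's quasi-likelihood test with Benjamini-Hochberg adjustment), and by 3.50 without MIRI 2 and GXNI 3 (adjusted p = 0.0018 in the same test).

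Egr1, the zinc finger factor induced with Fos by serum response factor, was at 4.99, 5.25 and 11.5 CPM in sham 1 to 3. It was at 75.1, 13.7 and 88.1 CPM in MIRI 1 to 3 and at 11.1, 23.1 and 135 CPM in GXNI 1 to 3. GXNI 1 lay just below sham 3, and the other I/R libraries lay above all sham libraries. The log2 fold change was 2.99 (SE 0.95, unadjusted p = 0.0118, adjusted p = 0.134, edgeR's quasi-likelihood test with Benjamini-Hochberg adjustment), just short of the rule.

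Myc encodes a basic helix-loop-helix factor that binds E boxes with MAX and drives growth genes. It was at 6.55, 2.38 and 3.36 CPM in sham 1 to 3, at 33.9, 6.35 and 60.0 CPM in MIRI 1 to 3, and at 7.79, 12.8 and 63.0 CPM in GXNI 1 to 3. MIRI 2 lay just below sham 1, the only overlap. Its log2 fold change of 2.90 also missed the rule (SE 0.92, unadjusted p = 0.0121, adjusted p = 0.134, edgeR's quasi-likelihood test with Benjamini-Hochberg adjustment).

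The number of members called in I/R against sham changed with the library left out, and so did the share of all genes. Without sham 1, 2 members were called (Fosl2 and Jund) against 1.33% of genes, without sham 2 only Jund against 1.03%, and without sham 3, 2 (Fos and Jund) against 1.23%. The log2 fold changes stayed between 2.71 and 3.51 for Fos, 3.88 and 4.43 for Fosb, and 1.71 and 2.61 for Fosl2. Atf3 then lay just past the threshold, with p between 0.01 and 0.011 after rounding, and had log2 fold changes between 4.1 and 4.2. Without MIRI 2, 8 members were called, the exceptions being Fosl1 and Jun, against 9.25% of genes. Without GXNI 1, 7 were called, Egr1 and Myc in addition to the 5, against 7.87% of genes, and without GXNI 3, 6, with Egr1 added, against 3.13% of genes. Leaving out MIRI 1, MIRI 3 or GXNI 2 left the count at 5 each time, against 2.16%, 2.25% and 2.88% of genes.

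**Figure D2:**
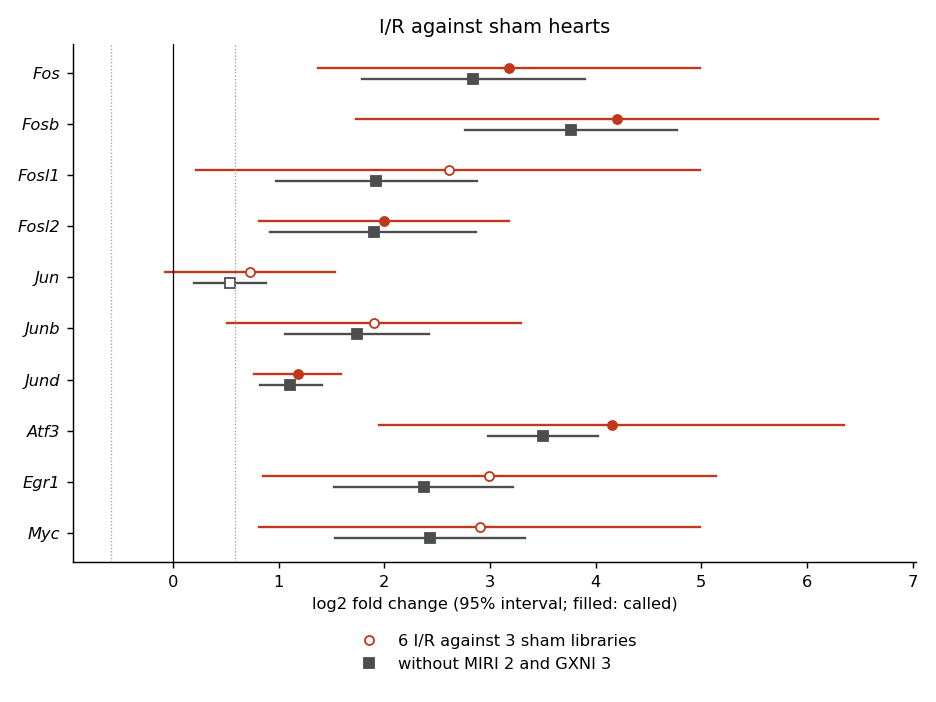
Log2 fold change of each member in I/R against sham hearts with its 95% interval, from 9 libraries (circles) and from 7, without MIRI 2 and GXNI 3 (squares). Filled symbols passed the rule, dotted lines mark a fold change of 1.5, and all 10 estimates lie to the right of 0 in both fits.

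The 6 I/R libraries differed from each other by more than many members differed from sham. The median of the members' levels over the sham mean was 7.07 times in MIRI 1, 2.04 in MIRI 2 and 11.8 in MIRI 3. It was 2.08 times in GXNI 1, 2.83 in GXNI 2 and 15.2 in GXNI 3. MIRI 2 and GXNI 1 were thus the lowest, 1 from each I/R group by the deposited labels, of which that of MIRI 2 is in doubt. GXNI 3 was the highest of the 9 libraries for 9 of the 10 members, all except Jund, and for 19.5% of all genes tested. Between the highest and lowest I/R library the level differed 1.57 times for Jund, 2.91 times for Jun and 3.52 times for Fosl2. The spread was 19.9 times for Fosb, 19.0 for Fosl1 and 12.2 for Egr1. Neutrophil markers followed a similar split in part, with S100a8 in MIRI 2 below the sham libraries and in GXNI 1 just above them, and their part in these levels was not tested. In MIRI 2, 7 of the 10 members lay above every sham library, against 33.9% of all genes, and in GXNI 1, 8, against 31.4%. In GXNI 2 it was 9, against 36.2%. In MIRI 1, MIRI 3 and GXNI 3 all 10 did, against 39.9%, 41.2% and 41.3% of genes.

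Untreated MIRI hearts were compared with sham to show the effect of I/R alone, and 7 members rose by the same rule, against 6.15% of the 14644 genes tested. These were Fos, by 3.13 on the log2 scale, Fosb by 4.13, Fosl2 by 1.98, Jund by 1.3, Atf3 by 4.21, Egr1 by 3.04 and Myc by 3.04. Fosl1, Jun and Junb were not called, with log2 fold changes of 2.61, 0.80 and 1.89 and p of 0.0149, 0.0181 and 0.0165 in edgeR's quasi-likelihood test. In 7 members all MIRI libraries were above all sham libraries, against 17.4% of genes. The 3 that overlapped were Fosl1, Junb and Myc, each through MIRI 2. The adjusted p of the called members lay between 0.0607 and 0.0923 (edgeR's quasi-likelihood test with Benjamini-Hochberg adjustment).

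MIRI 2 was the lowest MIRI library for all 10 members, so leaving it out raises the mean and narrows the range of the group by construction. Without it, all 10 members were called, with log2 fold changes from 1.03 for Jun to 4.66 for Atf3 and adjusted p of at most 0.00423 (edgeR's quasi-likelihood test with Benjamini-Hochberg adjustment). Of all genes, 16.9% were then called higher. Without MIRI 1 only Jund and Atf3 were called, against 2.9% of genes, while Fos was at 3.05, Fosb at 3.93, Egr1 at 2.83 and Myc at 3.04 on the log2 scale. Without MIRI 3 the same pair was called, against 3.19% of genes, with Fos at 2.71, Fosb at 3.62, Egr1 at 2.63 and Myc at 2.31. Without sham 1, 3 were called, Fosl2, Jund and Atf3, against 2.39% of genes. Without sham 2 it was 3, Fos, Jund and Atf3, against 2.25%, and without sham 3 it was 4, the same with Egr1, against 2.41%. In these fits without a sham library Fosb was at 3.79 to 4.34 and Myc at 2.75 to 3.55.

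GXNI hearts against the same sham libraries had 6 members that rose, against 2.67% of the 14695 genes tested. They were Fos, by 3.25 on the log2 scale, Fosb by 4.30, Fosl2 by 2.03, Junb by 1.93, Jund by 1.09 and Atf3 by 4.12, with an adjusted p of 0.219 each (edgeR's quasi-likelihood test with Benjamini-Hochberg adjustment). Values for the 4 others were 2.63 for Fosl1, 0.67 for Jun, 2.98 for Egr1 and 2.78 for Myc. In 7 members all GXNI libraries were above all sham libraries, against 13.8% of genes, and Fosl1, Jun and Egr1 overlapped. Both comparisons share the sham libraries, so their calls are not independent of each other.

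Without GXNI 3 the log2 fold changes over sham were smaller for every member. Atf3 was then at 2.35 (adjusted p = 0.0332, edgeR's quasi-likelihood test with Benjamini-Hochberg adjustment), Fosb at 2.90, Fos at 2.17, Junb at 1.17 and Jund at 0.86, and these 5 were called, against 2.11% of genes. Fosl2, at 1.53, lost its call. Jun at 0.06 and Fosl1 at 0.73 lay nearest to 0, and Egr1 was at 1.24 and Myc at 1.34. Without GXNI 1, 8 members were called, Fosl2 being lost at a log2 fold change of 2.05 and Fosl1, Egr1 and Myc gained, against 10.7% of genes. Without GXNI 2 it was 6, against 1.58%. Without sham 1 it was 2 (Fosl2 and Jund) against 0.781% of genes, and without sham 2 or sham 3 only Jund, against 0.551% and 0.64%. Fos was then at 2.78 to 3.57 on the log2 scale, Fosb at 3.97 to 4.53 and Atf3 at 4.06 to 4.16.

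In GXNI against MIRI hearts, which addressed the effect of the drug, 0 of the 10 members were called in either direction. Log2 fold changes ran from -0.25 for Myc to 0.19 for Fosb, with a median of -0.01, and each adjusted p was 1 (edgeR's quasi-likelihood test with Benjamini-Hochberg adjustment). Of the 14762 genes tested, 0% were called higher and 0.0203% lower. An unadjusted p under 0.05 was found for 47 genes, or 0.318%, and DESeq2 called 0 members, with 4 genes higher and 7 lower. These intervals are wide. For Atf3 the difference of -0.08 had a 95% interval of -2.47 to 2.30, for Egr1 -0.06 with -2.48 to 2.37, for Fos 0.12 with -1.61 to 1.86 and for Fosl1 0.03 with -2.81 to 2.87. The narrowest was that of Jund, -0.21 with -0.73 to 0.31, and that of Jun was -0.13 with -1.21 to 0.95. The intervals of most members include changes of several times in either direction.

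Without MIRI 2 and GXNI 3, with 2 libraries left in each group, 8 members were lower in GXNI by the rule, against 3.47% of genes. The log2 fold changes were -2.37 for Fosl1, -2.30 for Atf3, -2.24 for Egr1, -2.17 for Myc, -1.73 for Fosb, -1.34 for Fos, -1.14 for Junb and -0.96 for Jun. Fosl2 at -0.73 and Jund at -0.50 were not called. The adjusted p of the 8 lay between 0.182 and 0.189, so none passed 0.05 in edgeR's quasi-likelihood test with Benjamini-Hochberg adjustment. MIRI 2 was the lowest MIRI library and GXNI 3 the highest GXNI library for all 10 members, so leaving both out widens this difference by construction, and they were chosen with these values known. Leaving out GXNI 3 alone called 0 members, with log2 fold changes from -1.86 for Fosl1 to -0.43 for Jund, and leaving out MIRI 2 alone also called 0, with values from -0.75 for Myc to -0.24 for Fosl2. Without MIRI 3, 9 of the 10 differences were positive, Jund being the exception at -0.10. The direction of this comparison thus changed with the library left out.

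**Figure D3:**
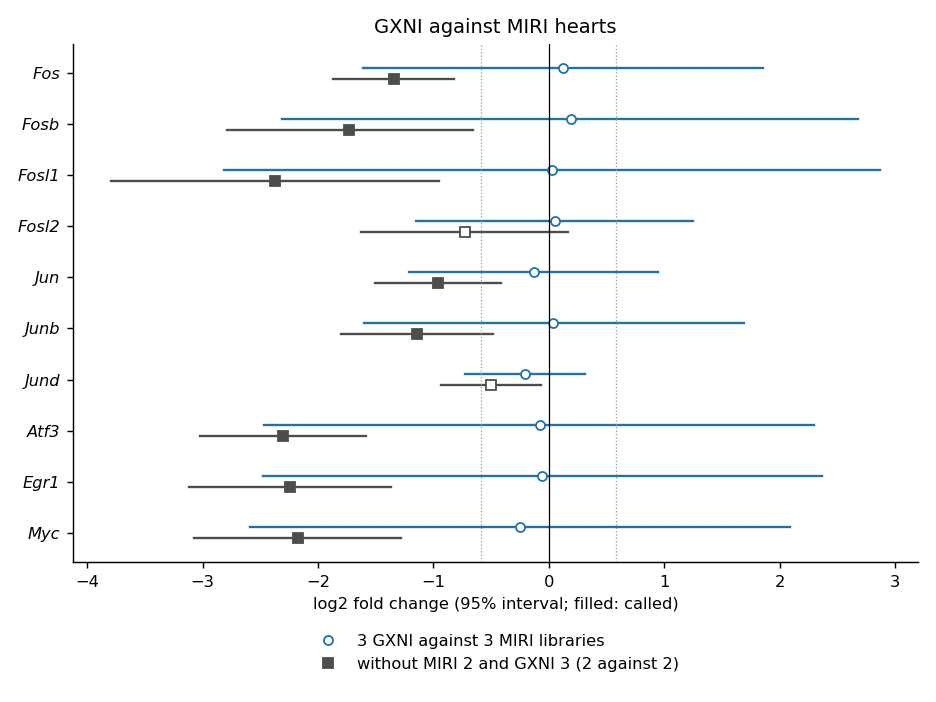
Log2 fold change of each member in GXNI against MIRI hearts with its 95% interval, from 3 libraries against 3 (circles) and 2 against 2, without MIRI 2 and GXNI 3 (squares). Filled symbols passed the rule and dotted lines mark a fold change of 1.5. The circles lie between -0.25 and 0.19 with wide intervals, and the squares lie between -2.37 and -0.50.

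Levels of different genes were compared per exon length, as RPKM, which is CPM divided by the exon length in kilobases. In sham hearts Jund was highest at 18.8 ± 2.37 RPKM (SD, n = 3), above Jun at 14.8 ± 1.37, with no overlap of their libraries. Junb at 13.5 ± 5.02 overlapped both, reaching 17.8 RPKM where the lowest Jund value was 16.2, and lay apart from Fosl2 at 4.16 ± 2.52. Egr1, Myc, Fosl1, Atf3 and Fos lay between 1.61 and 1.06 RPKM, each overlapping the next, and Fosb was apart from them at 0.0718 ± 0.0326. Sham hearts thus held mainly JUN family transcripts.

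In the 6 I/R hearts the highest mean was that of Junb at 50.4 ± 31.5 RPKM (SD, n = 6), then Jund at 42.9 ± 8.20, Jun at 24.5 ± 10.5 and Atf3 at 24 ± 21.4. Fosl2 followed at 16.6 ± 7.27, Egr1 at 12.9 ± 11.2, Myc at 11.3 ± 9.53, Fos at 9.60 ± 6.67, Fosl1 at 9.04 ± 8.88 and Fosb at 1.35 ± 1.17. Every neighbour in this order overlapped the next. Atf3 was the eighth in order in sham and the fourth in I/R hearts.

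Summed over the family, FOS transcripts were at 6.77 ± 2.78 RPKM in sham, 35.8 ± 20.4 in MIRI and 37.4 ± 30.7 in GXNI hearts (SD, n = 3). JUN family transcripts were at 47.1 ± 4.43, 122 ± 49.7 and 114 ± 59.4 RPKM. Within the JUN family, Jun made up 28.1%, 35.5% and 31.0% in sham 1 to 3, and 17.4% to 22.9% in the I/R libraries. These shares did not overlap, which was not tested. Fosl2 made up 49.0% to 72.1% of the FOS family in sham and 36.5% to 72.5% in I/R libraries, so its share overlapped. The share of Fosl1 was lowest in GXNI 1 at 5.22% and in MIRI 2 at 8.65%, and was 22.1% to 31.4% in the other I/R libraries.

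**Figure D4:**
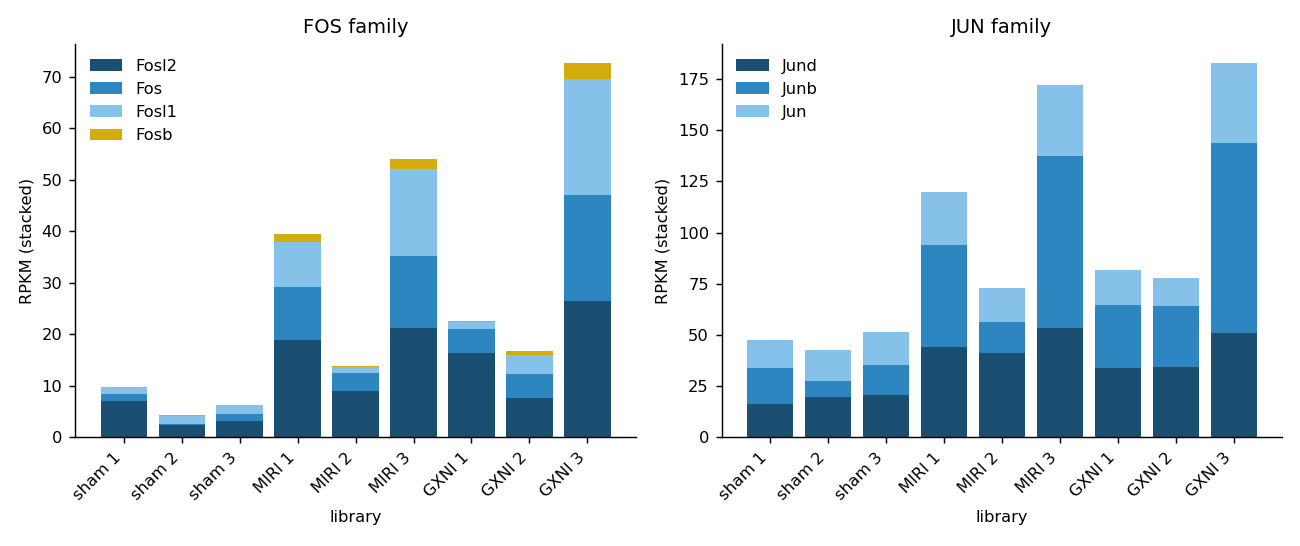
Stacked RPKM of the FOS family (left) and the JUN family (right) in each of the 9 libraries, starting at 0. FOS totals reach from 4.26 RPKM in sham 2 to 72.7 in GXNI 3, and JUN totals from 42.6 RPKM in sham 2 to 183 in GXNI 3.

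Across the 9 libraries the log2 CPM of the members moved together, as a description. Pearson's r over the 45 pairs of members ran from 0.68 to 0.98 with a median of 0.90. These values share the libraries and include the step from sham to I/R. Genes at large also varied mainly along a shared axis, as given above. Pairs of other genes were not correlated for comparison, so these values do not set the members apart. For each member the most alike gene lay outside the set, among 15206 genes searched. Of all genes tested, the level of Adamts1, a secreted protease, was most like that of Atf3 (r = 0.998 over 9 libraries and 0.997 over the 6 I/R libraries). For Fosb it was Relb, an NF-κB subunit (0.997 and 0.999), and for Egr1 it was Cxcl1, a neutrophil chemokine (0.992 and 0.986). For Myc it was Ccdc88a (0.996 and 0.997), and for Fosl1 it was Wdr36 (0.995 and 0.994). These members are examples.

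Other genes of the pathways were counted from lists, whose counts in I/R against sham stand against the 4.09% of all genes called higher. Of 16 other immediate early genes, 15 were tested and 10 rose in I/R against sham hearts, with a median log2 fold change of 1.95. They were Egr2, Egr3, Nr4a1, Nr4a2, Nr4a3, Btg2, Arc, Ccn2, Csrnp1 and Nfil3. Egr2, a relative of Egr1, was at 0.268 to 0.373 CPM in sham and 1.25 to 11.9 CPM in I/R libraries, a log2 rise of 4.07 (SE 1.0, adjusted p = 0.125, edgeR's quasi-likelihood test with Benjamini-Hochberg adjustment). Ccn2, a matricellular growth factor gene, was at 33.4 to 48.0 CPM in sham and 131 to 745 CPM in I/R libraries, a log2 rise of 3.44.

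Other AP-1 partners were counted next. Of 11 further leucine zipper genes, 2 rose, Mafk by 1.21 and Jdp2 by 1.02 on the log2 scale, and the median was 0.38, against 2.76 for the members, a difference that was not tested. Maff had a log2 fold change of 1.87 and was not called (unadjusted p = 0.0106 in edgeR's quasi-likelihood test). Among 14 upstream genes, mainly MAP kinases and serum response factor with its partners, only Srf rose, by 0.59, and their median was -0.04. The Srf level was 74.3 to 87.5 CPM in sham and 99.1 to 148 CPM in I/R libraries.

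Of 14 genes known as AP-1 targets, 4 rose, among them Timp1, Plaur and Cd44, and the median log2 fold change was 2.74. Plaur, the urokinase receptor, was at 2.43 to 3.84 CPM in sham, at 86.6, 7.60 and 140 CPM in MIRI 1 to 3, and at 6.14, 23.0 and 163 CPM in GXNI 1 to 3. It was thus lowest in MIRI 2 and GXNI 1, as several members were. Il6, the interleukin-6 gene, had a log2 fold change of 5.58 and was not called (unadjusted p = 0.0146 in the same edgeR test). Several of these genes are also expressed by leukocytes, whose share was not tested.

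Of 7 stress genes linked to ATF3, 1 rose, Ppp1r15a, a phosphatase subunit of the integrated stress response, by 1.77 on the log2 scale. Of 9 MYC network genes, 7 were tested and 0 were called, with a median of -0.19. Of 10 genes known as MYC targets in ribosome biogenesis and growth, 1 rose, Nop58, by 1.64, and all 10 had a positive log2 fold change, with a median of 0.84. The EGR cofactors Nab1 and Nab2 were not called. In none of these lists was a gene called lower, against 2.5% of all genes.

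**Figure D5:**
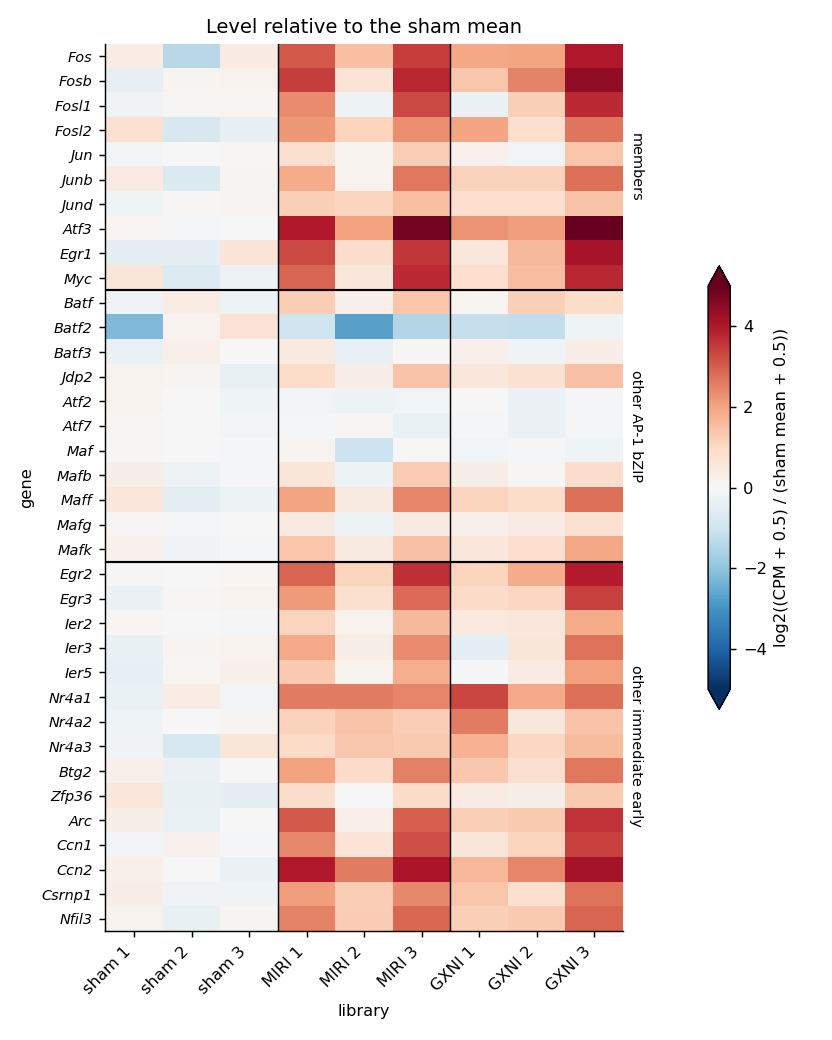
Colour scale of log2((CPM + 0.5) / (sham mean + 0.5)) for the members and tested genes of 2 lists, the other AP-1 leucine zipper genes and the other immediate early genes (rows) in the 9 libraries (columns), with values beyond 5 in either direction shown in the end colours. MIRI 1, MIRI 3 and GXNI 3 are the reddest columns, and MIRI 2 and GXNI 1 are paler for most rows.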

How the data were processed

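Heart RNA of 3 sham, 3 MIRI and 3 GXNI mice was sequenced. Per the labels, the authors aligned reads with HISAT2 to mm10 and counted them with featureCounts of Subread. The deposited values are whole-number counts per gene without normalization. Versions, annotation release and strand setting are not given in the sources used here. Symbols and exon lengths came from GENCODE M21 (GRCm38), which matched 54409 of 54532 identifiers. Library totals were 17119454 to 22811295. At this depth 3 counts were 0.132 to 0.175 CPM, which covers counting error only.

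Counts were fitted in edgeR 4.0.16 (R 4.3.3) with TMM normalization, filterByExpr and the quasi-likelihood test without covariates, over all genes. I/R against sham used 9 libraries in 3 groups and the mean of MIRI and GXNI. The other comparisons used their 6 libraries. The SE is the log2 fold change divided by the square root of F. Log2 CPM for similarity used a prior count of 0.5, and RPKM is CPM per kilobase of summed exon length. Alternatives were DESeq2 1.42.0, RLE normalization, no filter, other sets of libraries in the fit, the replicate number as a block, an adjusted p of at most 0.05, and libraries left out. The fits of I/R and of MIRI against sham were run on simulated data with the same spread for every gene. The I/R libraries here differ far more for many members, so that run does not show how the fits behave on them.

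Groups follow the deposited labels. The labels of MIRI 2 and GXNI 3 are in doubt, and no fit with exchanged labels was made. The paper describes 3 independent animals per group, so the tests weigh group differences against the spread between mice. No pair of libraries agreed within sampling noise, with a chi-square of at least 14.4 times its degrees of freedom. Members and lists were chosen with earlier results of these data known. All members are named, and of each list at most 4 genes, those with the largest change among genes called in any comparison, besides names of all called genes. The most alike genes are those with the highest Pearson correlation, printed for some members as examples. Egr1 sequence and 1 gene of the AP-1 target list are not reported here.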

Additional observations from a re-analysis of the deposited data

How the results depend on the processing

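In I/R against sham, 622 genes were called higher and 380 lower, with 5 members higher. DESeq2 called 1343 and 601 with 9 members, no filter on low counts 1209 and 684 with 9, and 2 groups of 6 and 3 libraries 840 and 434 with 8 members (5.52% of genes higher). In MIRI against sham, with 900 higher and 413 lower and 7 members, DESeq2 called 1491 and 760, no filter 1603 and 803, and 9 libraries in 1 fit 535 and 265. In GXNI against MIRI, with 0 higher and 3 lower, DESeq2 called 4 and 7, no filter 4 and 6, and 9 libraries in 1 fit 1 and 8. In GXNI against sham, with 392 higher and 226 lower and 6 members, DESeq2 called 994 and 407, no filter 999 and 426, and 9 libraries in 1 fit 142 lower. DESeq2 gave no p for Atf3 in the last comparison. At an adjusted p of at most 0.05 (edgeR's quasi-likelihood test with Benjamini-Hochberg adjustment), the main fits called 0 members in any comparison. The genes called were then 2 higher and 0 lower for MIRI over sham and 0 elsewhere. RLE normalization moved no count by over 1.5 times. The cause of these moves was not tested.

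Same-numbered mice of different groups are different animals, and the main fits used no pairing. Their deviations from the group means correlated between -0.445 and 0.701, highest for MIRI 3 and GXNI 3. With 3 mice per group these values cannot show whether mice of the same number shared a batch. With the replicate number as a block, 8 members were called in I/R against sham with 620 genes or 4.08% higher, and 2 genes higher and 1 lower in GXNI against MIRI, where Fos (-0.02), Fosl1 (-0.16) and Fosl2 (-0.04) turned negative.

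With libraries left out, I/R against sham gave 161 to 1589 genes higher, 156 to 1088 lower and 1 to 9 members. MIRI against sham gave 340 to 2571, 174 to 2021 and 2 to 10, and GXNI against sham 83 to 1603, 90 to 1062 and 1 to 8. GXNI against MIRI gave 0 to 228 higher, 0 to 520 lower and 0 to 8 members lower. Its log2 fold changes ran from -2.30 to 0.57 for Atf3, -2.24 to 0.43 for Egr1, -1.34 to 0.53 for Fos, -1.73 to 0.69 for Fosb, -2.37 to 0.87 for Fosl1, -0.73 to 0.40 for Fosl2, -0.96 to 0.15 for Jun, -1.14 to 0.64 for Junb, -2.17 to 0.47 for Myc and -0.50 to -0.10 for Jund. Directions against sham stayed positive for all members in the alternatives run. Depth limits mainly Fosb, with 4 to 11 counts in sham libraries.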
